A study of Mus musculus with 2 samples.

Results

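The Slc25 genes encode the mitochondrial carriers, and they were described here in mouse intestinal tumours as a family of 47 genes among the 32285 genes counted. Every gene whose symbol is Slc25a followed only by a number was taken as a member, whatever its level. Genes of the carrier family with other symbols, such as Ucp2, are therefore outside the family sums. The mice had received the carcinogen azoxymethane together with dextran sulfate sodium, an agent that injures the colon (AOM-DSS). One library came from Mtch2fl/fl mice, called WT here, in which the floxed Mtch2 alleles are intact, and the other from Mtch2fl/fl VilCre mice, called cKO, in which Cre driven by the Villin promoter deletes Mtch2 in intestinal epithelium. Both groups of mice carried the floxed alleles and both received AOM-DSS. The labels give no age, sex or number of mice, and tumours were pooled within a genotype, so there is 1 library per genotype and no test between genotypes. All intervals below are 95% intervals for counting error only, exact Poisson for levels and conditional binomial for ratios, and they hold no variation between mice.

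Mitochondrial carriers sit mostly in the inner mitochondrial membrane and exchange nucleotides, phosphate, carboxylic acids, amino acids, acylcarnitines, cofactors and metals between the cytosol and the matrix. They are made in the cytosol, and dedicated receptors, small chaperones and an insertase bring them into the inner membrane. MTCH2, the protein removed in the cKO, is a relative of these carriers that lies in the outer membrane and helps to insert proteins there, and MTCH1 is its paralogue.

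Quality filters left 7245 cells of WT and 4388 of cKO. Their median depth was 3723 and 6928 unique molecular identifiers (UMIs, each counting 1 captured RNA molecule). Clusters were named from marker genes, with the members left out of the genes used for clustering. Epithelial-like cells numbered 3106 in WT and 2013 in cKO, with 93183954 and 70481876 UMIs and medians of 20624 and 27605 UMIs. All 10 epithelial markers were detected in them, at a summed level of 12489 UMIs per 1000000 (CPM) in WT and 11601 in cKO. The libraries shared 22 cell barcodes. A further 39.1% of WT cells and 13.1% of cKO cells fell in clusters without a name. Cluster 0 was the largest of these, with 2476 cells of WT (median 734 UMIs) and 484 of cKO (median 722).

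The promoters of Slc25a4 and Slc25a5 are shown first because these genes, which encode the main ADP/ATP carriers, were high in different epithelial-like clusters, as described below. Each window runs from 250 bases before to 50 bases after the gene start in RefSeq (GRCm38.p6). The Slc25a4 window is chr8:46211013-46211312 on the minus strand and that of Slc25a5 is chrX:36795347-36795646 on the plus strand. Capitals mark the motif TATAA, searched on both strands.
Slc25a4: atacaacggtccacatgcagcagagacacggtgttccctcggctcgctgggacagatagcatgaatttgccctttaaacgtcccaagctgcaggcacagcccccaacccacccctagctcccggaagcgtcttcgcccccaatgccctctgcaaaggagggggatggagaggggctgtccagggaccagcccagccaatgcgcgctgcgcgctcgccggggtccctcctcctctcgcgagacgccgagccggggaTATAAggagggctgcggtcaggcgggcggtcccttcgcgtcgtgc
Slc25a5: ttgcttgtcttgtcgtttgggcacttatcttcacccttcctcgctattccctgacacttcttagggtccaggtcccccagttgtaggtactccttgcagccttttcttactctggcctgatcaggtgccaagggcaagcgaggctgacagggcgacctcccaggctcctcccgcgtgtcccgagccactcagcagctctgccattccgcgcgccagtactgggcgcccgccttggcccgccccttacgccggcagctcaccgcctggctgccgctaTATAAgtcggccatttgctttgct
TATAA begins at base 256 of the Slc25a4 window and at base 277 of the Slc25a5 window. Both matches thus lie past the first 250 bases, after the gene start used for the window and not before it. In the GENCODE annotation the genes start elsewhere, at chr8:46211284 and chrX:36795651, so the place of a match relative to the start depends on the annotation. Of the members, 36 had a window in the table, 46 windows in all, and 5 of these (10.9%) held TATAA on either strand, against 24.9% of the 32851 windows of all genes. CCAAT was present in 47.8% of the members' windows and 37.4% of all, and CCGGAAG in 15.2% and 8.86%. These matches describe letters in the windows only.

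In epithelial-like cells the family as a whole was read at nearly the same level in both libraries. The 47 members together gave 2299 CPM in WT (2289 to 2309) and 2276 CPM in cKO (2265 to 2287), a log2 ratio of cKO over WT of -0.014 (-0.024 to -0.0050). The ADP/ATP and phosphate carriers, Slc25a4, Slc25a5, Slc25a31 and Slc25a3, supplied 59.8% of the UMIs of the 47 members in WT. The size and direction of this small difference depended on the scaling: it was 0.025 with mitochondrial, ribosomal protein, haemoglobin and immunoglobulin genes left out of the total.

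Of the 47 members, 26 reached 10 CPM in epithelial-like cells of either library and are called measured. A further 11 reached it only in another cell class, and 10 stayed under 10 CPM in all classes that had 30 or more cells per library. Among the 11 were Slc25a14, Slc25a15, Slc25a18, Slc25a27, Slc25a29, Slc25a40, Slc25a42, Slc25a44, Slc25a45 and Slc25a53. The 10 were Slc25a2, Slc25a21, Slc25a31, Slc25a34, Slc25a35, Slc25a41, Slc25a43, Slc25a47, Slc25a48 and Slc25a54. Among the 26 measured members, 7 were higher in cKO and 10 lower with an interval that excluded 0, where 26.6% of all 9399 measured genes were higher and 35.8% lower by that rule. None of the 26 passed 1.5-fold, which 1.99% of all measured genes did. Their median log2 ratio was -0.0033, beside -0.019 over all measured genes, and the ratios ran from -0.34 for Slc25a22 to 0.17 for Slc25a13. At these depths an interval that excludes 0 is common, so the size of a ratio says more than the count. Within single epithelial-like clusters some members did pass 1.5-fold: 4 of 29 measured in cluster 9, 3 of 28 in cluster 12 and 2 of 26 in cluster 7. Of all genes 8.23%, 11.4% and 10.6% passed there. No member passed in clusters 1, 2, 3, 4 and 6.

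**Figure D1:**
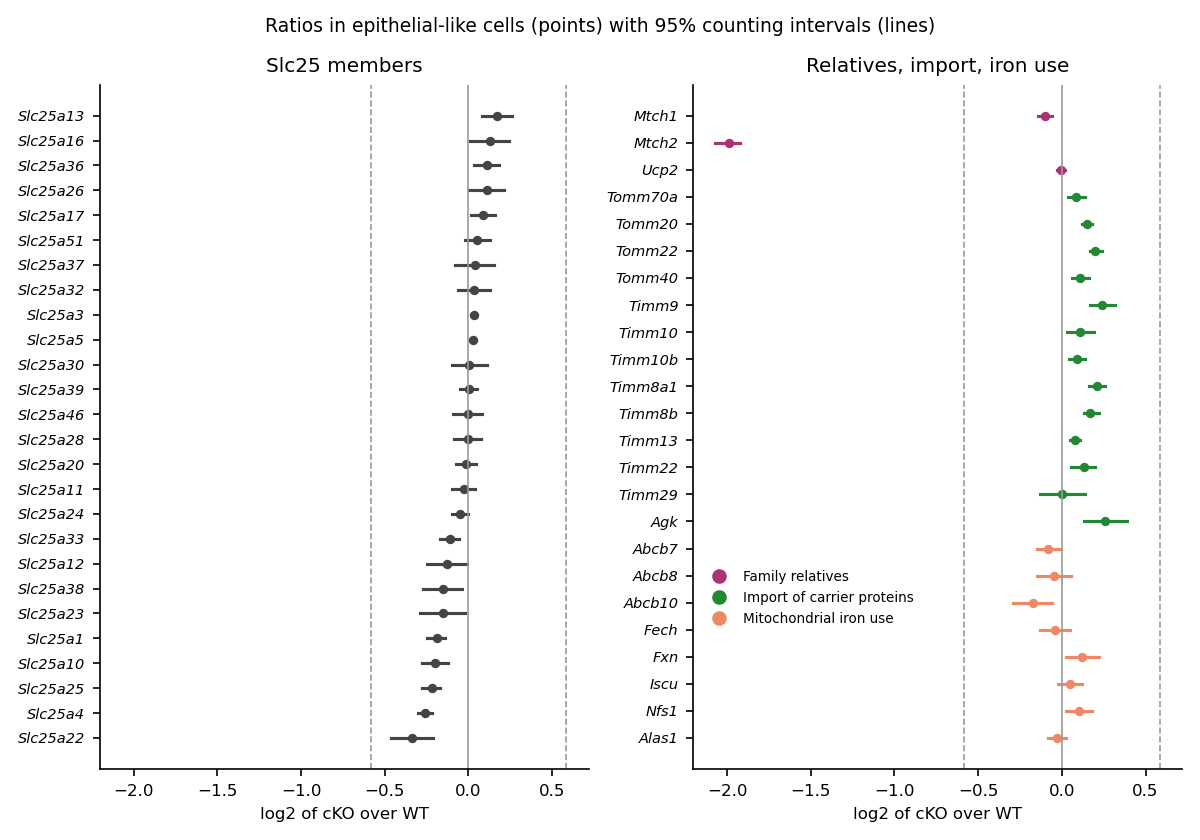
Log2 ratio of cKO over WT in epithelial-like cells for the 26 measured Slc25 members (left) and for measured family relatives, import genes and iron genes (right), with 95% counting intervals as lines and 1.5-fold as dashed lines. All 26 members lie inside the dashed lines, and Mtch2 at -1.99 lies outside them.

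The deleted gene checked the labels. Mtch2 had 93.2 CPM in epithelial-like cells of WT and 23.4 in those of cKO, a log2 ratio of -1.99 (-2.07 to -1.92), and it was lower in 8 of 8 epithelial-like clusters. Macrophages and monocytes do not express Villin, and the class named for them had 53.3 and 50.9 CPM of Mtch2. Its paralogue Mtch1 was at 133 and 124 CPM in epithelial-like cells, log2 -0.10. Ucp2, an uncoupling protein of the carrier family that is not among the members because of its symbol, was at 304 and 302 CPM. Of Mtch1, Mtch2 and the Ucp genes, 3 were measured in each immune class compared. In neutrophil-like cells all 3 were lower in cKO, median -0.71 beside -0.28 over all genes. There 2 of them passed 1.5-fold, where 16.2% of all genes were lower by this rule. In T-like cells all 3 were lower, median -0.26, and in macrophage and monocyte-like cells 2 were lower and 1 higher.

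Among the carriers of adenine nucleotides and phosphate, Slc25a4 had the clearest difference between libraries. Slc25a4 had 146 CPM in WT against 122 in cKO, log2 -0.26 (-0.30 to -0.22). It was lower in cKO in 7 of 8 clusters, 6 of them with an interval that excluded 0, and higher in cluster 6, at 59.2 and 71.4 CPM. Slc25a5, the ADP/ATP carrier of dividing and epithelial tissues, was at 627 and 639 CPM, log2 0.028 (0.0098 to 0.045). The sum over cells and the clusters went opposite ways for Slc25a5: it was lower in cKO in 6 of 8 clusters, and with equal weight for each cluster its log2 ratio was -0.077. By sex, assigned to cells from Xist and Y-linked UMIs, it was 0.27 (0.23 to 0.31) in female and -0.054 in male cells. The annotation names 1 pseudogene of Slc25a5, with which reads could be shared. Slc25a31, the testis form, had 43 and 29 UMIs in all epithelial-like cells. Slc25a3, the phosphate carrier, was at 602 and 615 CPM, log2 0.032, and was lower in 4 and higher in 4 clusters.

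The calcium-regulated carriers of ATP-Mg and phosphate had lower values in cKO when summed over the epithelial-like cells. Slc25a25 was at 79.7 and 68.2 CPM, log2 -0.22 (-0.28 to -0.17), and Slc25a24 at 90.1 and 87.0 CPM, log2 -0.050. Slc25a23, the least abundant measured gene of this group, was at 12.1 and 10.9 CPM. By cluster the direction was mixed. Slc25a25 was lower in cKO in 6 clusters and higher in 2, Slc25a24 lower in 4 and higher in 4, and Slc25a23 lower in 5 and higher in 3. The assigned sexes were unevenly mixed: 977 female and 1142 male epithelial-like cells in WT against 319 and 1159 in cKO. The log2 ratio of Slc25a25 was 0.18 when only female cells were summed and -0.35 when only male cells were. That of Slc25a24 was 0.15 in female and -0.11 in male cells. The part of the sex mix in the pooled values was not tested.

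Slc25a1 and Slc25a10, carriers of carboxylic acids, had lower values in cKO in each cluster. Slc25a1, which exports citrate for lipid synthesis, was at 65.4 and 57.1 CPM, log2 -0.19 (-0.25 to -0.14), and was lower in 8 of 8 clusters, 5 with an interval that excluded 0. Its log2 ratio was -0.34 in female cells and -0.083 (-0.17 to 9.7e-04) in male cells, where the interval reached 0. Slc25a10, the dicarboxylate carrier, was at 32.0 and 27.8 CPM, log2 -0.20, and was also lower in 8 of 8 clusters, 4 with such an interval. Slc25a11, the oxoglutarate carrier of the malate-aspartate shuttle, was at 44.1 and 43.2 CPM, with an interval of -0.096 to 0.040 for its log2 ratio.

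The amino acid carriers had the lowest and the highest ratio of the measured members. Slc25a22, a glutamate carrier, had 1399 UMIs in WT and 838 in cKO, with a log2 ratio of levels of -0.34 (-0.46 to -0.21). It was lower in cKO in 5 clusters, 3 of them with an interval that excluded 0, and higher in 3. Slc25a22 on its own was not run under the alternative settings described below. The aspartate and glutamate carriers differed in sign: Slc25a13 was at 23.9 and 26.9 CPM, log2 0.17, and Slc25a12 had a log2 ratio of -0.13. Slc25a38, which brings glycine into mitochondria for heme synthesis, had a log2 ratio of -0.15. Slc25a20, which carries acylcarnitines for fatty acid oxidation, was at 55.7 and 55.2 CPM, log2 -0.013 (-0.074 to 0.047). With each cell weighted equally its log2 ratio was 0.33, and in female cells alone 0.16 (0.025 to 0.30). In the first of these, shallow cells count as much as deep ones, and no counting interval is given for it.

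Carriers of nucleotides, cofactors and metals lay close to equality. Slc25a33, a pyrimidine nucleotide carrier, was at 64.5 and 59.6 CPM, log2 -0.11, and by assigned sex -0.57 (female) and 0.11 (male). The related Slc25a36 was at 36.7 and 39.4 CPM, log2 0.11 (0.032 to 0.18). It was higher in 7 of 8 clusters, 5 with an interval that excluded 0, and lower in 1, also with such an interval. Slc25a39, which imports glutathione, was at 74.0 CPM in both when summed over cells. By cluster it was lower in cKO in 6 of 8 and higher in 2. Its log2 ratio was -0.096 with equal weight for each cluster and -0.085 with each cell weighted equally. The iron carriers, called mitoferrins, had intervals that included 0: Slc25a37 was at 14.9 and 15.3 CPM with a log2 interval of -0.078 to 0.15, and Slc25a28 at 30.7 and 30.6 CPM with -0.085 to 0.077. Slc25a51, the NAD carrier, was at 36.3 and 37.7 CPM, and Slc25a26, which imports S-adenosylmethionine, at 17.8 and 19.2 CPM. Slc25a17, a carrier of peroxisomes rather than mitochondria, was at 36.9 and 39.2 CPM. The remaining measured members, Slc25a16, Slc25a30, Slc25a32 and Slc25a46, lay between 15.1 and 27.2 CPM in both libraries.

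Below 10 CPM, Slc25a48 was at 4.96 CPM (462 UMIs) in WT and 6.85 CPM (483 UMIs) in cKO, log2 0.47 (0.28 to 0.65), and was higher in 8 of 8 clusters, 3 with an interval that excluded 0. Only Slc25a34, with 35 and 49 UMIs, and Slc25a43, with 13 and 28 UMIs, passed 1.5-fold when the filter on low values was removed. The share of all genes that would pass without that filter is not given, so this count has no background beside it. Slc25a54 had no UMI in WT epithelial-like cells and 3 in cKO.

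The 13 genes of carrier protein import, fixed as a list with earlier results known, were all measured in the summed epithelial-like cells. All were higher in cKO, where 44.6% of all genes were higher by any amount. Of the 13, 12 had an interval that excluded 0, where 26.6% of all genes were higher with such an interval. These 13 genes were not run under the alternative settings described below. Their median log2 ratio was 0.13 beside -0.019 over all genes, and none passed 1.5-fold. Tomm20, an import receptor of the outer membrane, was at 220 and 245 CPM, and Timm9, a chaperone of the space between the membranes, at 31.4 and 37.2 CPM. The direction was not shared by every cluster. Fewer were higher than lower in cluster 1 (5 of 13 higher, median -0.041), cluster 7 (4 of 12, median -0.34, with 2 lower past 1.5-fold) and cluster 9 (4 of 12, median -0.16), where 48.8%, 53.2% and 50.8% of all genes were higher. Most were higher in cluster 2 (10 of 11), cluster 3 (9 of 13), cluster 4 (10 of 13), cluster 6 (11 of 13) and cluster 12 (12 of 13), where 45.6%, 46.8%, 43.2%, 44.8% and 52.8% of all genes were. Of the other mitochondrial transport genes 7 of 16 measured were higher and 9 lower, median -0.049. Of the genes of mitochondrial iron use 3 of 8 were higher and 5 lower, median -0.035.

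Several members differed among the epithelial-like clusters by far more than between libraries. The clusters were cluster 1 (stem epithelial-like, led by Pdzrn4, Unc5d and Lgr5), cluster 2 (colonocyte-like), cluster 12 (goblet and Paneth-like) and clusters 3, 4, 6, 7 and 9, which carry no subtype name. Cluster 3 was led by S100g, cluster 4 by Gabrb1 and Npy and cluster 6 by Fut9 and Cftr. Clusters 7 and 9 had medians of 4278 and 3407 UMIs in WT, against at least 9264 in the others. The family sum was highest in cluster 2, at 2737 CPM in WT and 2665 in cKO, and lowest in cluster 9, at 1509 and 1383 CPM. It was lower in cKO in clusters 1, 2, 3 and 9 with intervals that excluded 0, with 2544 against 2365 CPM in cluster 3.

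**Figure D2:**
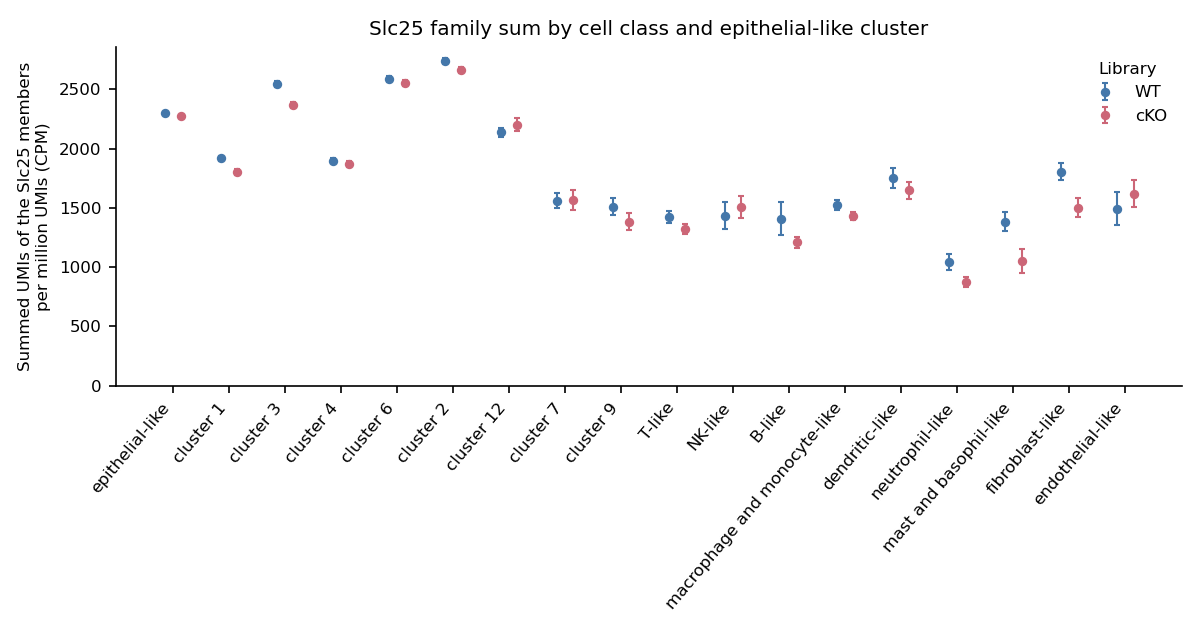
Summed CPM of the 47 Slc25 members in epithelial-like cells, their 8 clusters and the other named classes with 30 or more cells per library, coloured by library, with 95% counting intervals. Epithelial-like cells stand at 2299 (WT) and 2276 CPM (cKO), and neutrophil-like cells are the lowest of those plotted, at 1041 and 873 CPM.

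The ADP/ATP carriers were high in different clusters. Slc25a4 was lowest in colonocyte-like cluster 2 (17.0 CPM in WT, 11.9 in cKO) and highest in cluster 3 (270 and 231 CPM), a span of 15.8-fold in WT and 19.5-fold in cKO. Slc25a5 was highest in cluster 2 (952 and 913 CPM). Cluster 4 had 309 and 299 CPM of Slc25a5 beside 224 and 196 CPM of Slc25a4. Cluster 3 had high levels of both, with Slc25a5 at 683 and 648 CPM. A finer clustering split cluster 2 in 3, and Slc25a4 stayed between 11.7 and 20.2 CPM in the WT cells of each.

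Other members also differed among the clusters in both libraries. Slc25a20 reached 149 and 136 CPM in cluster 2, and 174 and 207 in cluster 7, against 24.7 and 29.0 in cluster 4. Slc25a24 reached 183 and 170 CPM in cluster 2, with 51.5 and 62.2 in stem epithelial-like cluster 1. Slc25a10 reached 60.4 and 50.6 CPM in cluster 2, with 12.5 and 11.8 in cluster 4. The opposite order was found for Slc25a33, which had 93.9 and 79.8 CPM in cluster 1, and 28.9 and 30.6 in cluster 2. Slc25a23 went from 2.37 and 1.23 CPM in cluster 2 to 24.3 and 27.2 CPM in cluster 4. Slc25a27, a member of the uncoupling protein group, had 1.02 and 1.68 CPM in cluster 2, with 15.9 and 17.5 in cluster 4.

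**Figure D3:**
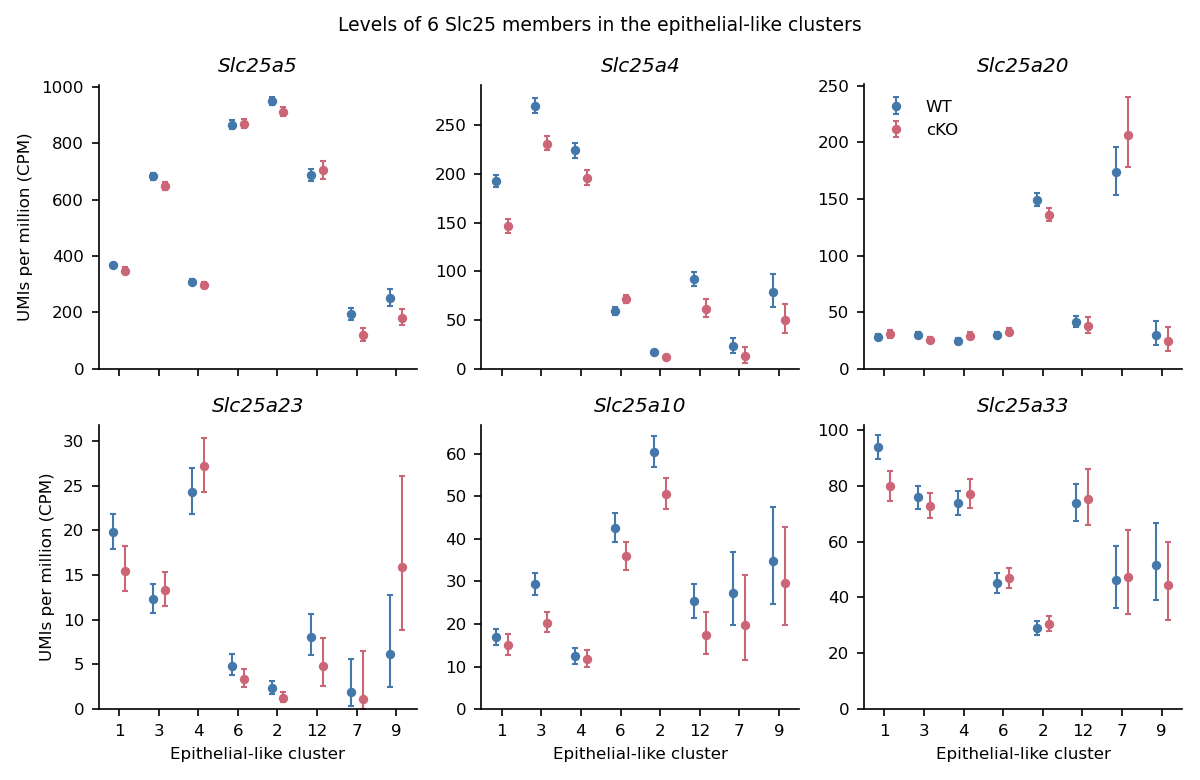
CPM of 6 Slc25 members in the 8 epithelial-like clusters by library, with 95% counting intervals. Slc25a5 peaks in cluster 2, where Slc25a4 is at 17.0 (WT) and 11.9 CPM (cKO).

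Across cell classes the family sum was lower than in the pooled epithelial-like cells. Epithelial-like clusters 7 (1561 and 1562 CPM) and 9 (1509 and 1383 CPM) lay in the range of the other classes. Dendritic-like cells, for 1, were at 1750 and 1647 CPM. The sum was 1423 CPM in WT and 1323 in cKO T-like cells, 1524 and 1430 in macrophage and monocyte-like cells and 1041 and 873 in neutrophil-like cells. Against epithelial-like cells, 16 of 28 members tested in neutrophil-like cells were at least 2-fold lower in both libraries, where 52.1% of all genes were, so that the members' share was near that of all genes. In T-like cells 9 of 29 members were lower by this rule and 6 higher, against 24.1% and 16.8% of all genes.

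Several members had higher levels in lymphoid classes than in epithelial-like cells. Slc25a36 was at 78.5 and 91.8 CPM in T-like cells and 104 and 127 CPM in NK-like cells. Slc25a51 was at 72.5 and 78.0 CPM in T-like cells, and Slc25a40, a relative of Slc25a39, at 39.0 and 39.2 CPM against 9.23 and 9.89 CPM in epithelial-like cells. Slc25a12 was at 44.5 and 34.3 CPM in T-like cells.

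Myeloid classes had other members. Slc25a20 was at 215 and 235 CPM in dendritic-like cells, the highest of the classes shown, and at 89.2 and 115 CPM in neutrophil-like cells. Slc25a37 was at 56.6 and 41.3 CPM in neutrophil-like cells. Slc25a18, a glutamate carrier, was at 20.7 and 14.3 CPM there against 1.29 and 1.28 CPM in epithelial-like cells. Macrophage and monocyte-like cells had only 14.1 and 18.8 CPM of Slc25a24. Outside the myeloid classes, Slc25a29, a carrier of basic amino acids, reached 16.1 and 10.6 CPM in endothelial-like cells. These were only 50 and 54 cells with 311145 and 472101 UMIs in all, so these values rest on few UMIs.

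**Figure D4:**
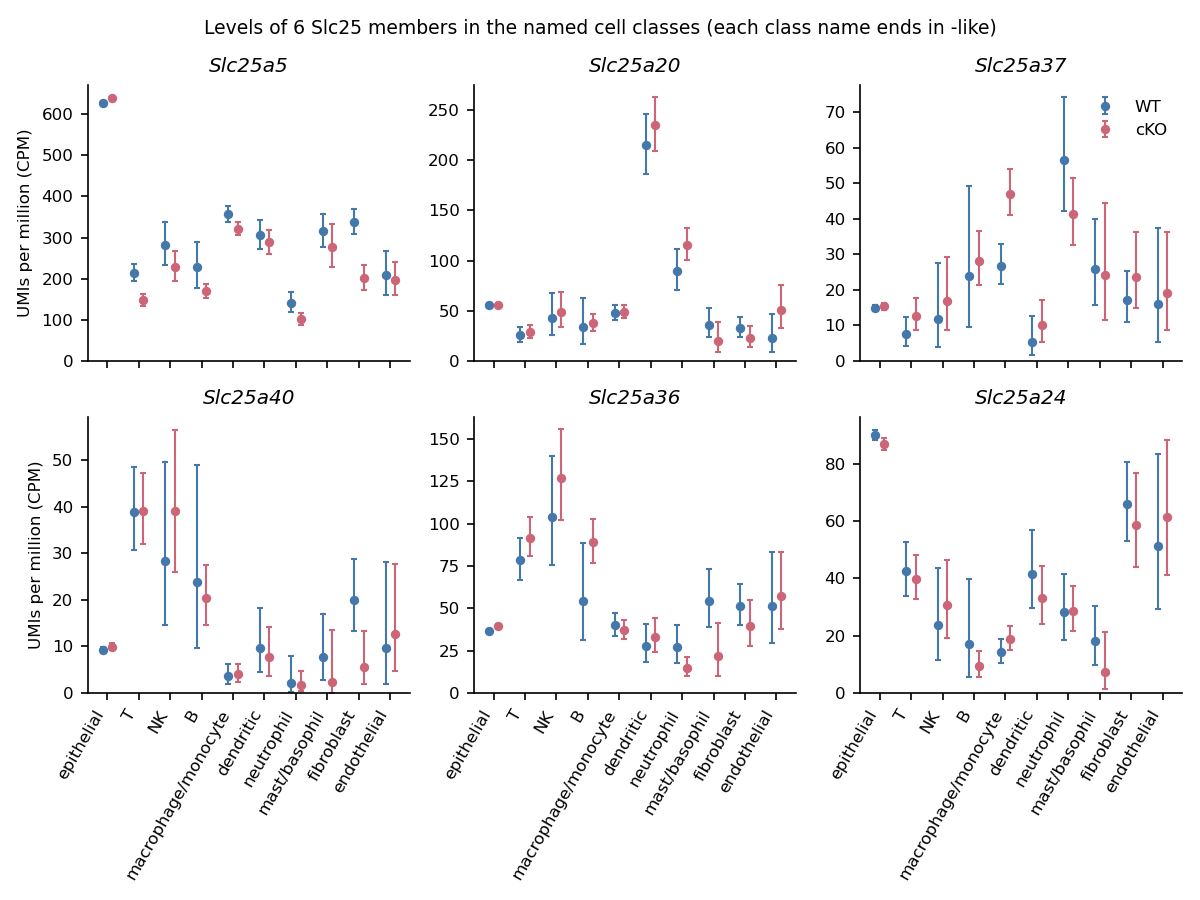
CPM of 6 Slc25 members in 10 named cell classes by library, with 95% counting intervals. Slc25a5 is highest in epithelial-like cells, Slc25a20 in dendritic-like cells at 215 (WT) and 235 CPM (cKO), and intervals are wide in the classes with few cells.

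Between libraries the immune classes had wider intervals than the epithelium. In macrophage and monocyte-like cells 4 of 26 measured members passed 1.5-fold, where 11.7% of all genes did. Slc25a37 was higher in cKO, with 26.8 CPM (91 UMIs) in WT and 47.1 CPM (213 UMIs) in cKO, log2 0.81 (0.45 to 1.18). Slc25a33 was lower, at 58.6 and 37.9 CPM, log2 -0.63, as were Slc25a10 at 15.9 and 9.08 CPM and Slc25a45 at 17.1 and 11.3 CPM. In T-like cells 1 of 26 passed, where 8.46% of all genes did: Slc25a39 was at 27.0 and 17.2 CPM, and Slc25a5, short of 1.5-fold, at 214 and 148 CPM.

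In neutrophil-like cells 5 of 21 measured members were at least 1.5-fold lower and none higher, where 16.2% of all genes were lower and 2.33% higher by this rule. The median of all genes was itself -0.28 there, and the members' median was -0.46. The family sum in these cells had a log2 ratio of -0.26 (-0.37 to -0.14), which became 0.028 with median-of-ratios scaling and 0.057 with a marker gate on each cell. The log2 ratio was -1.40 for Slc25a1, -1.10 for Slc25a4, -1.46 for Slc25a25, -0.88 for Slc25a36 and -1.86 for Slc25a46, each from 28 UMIs or fewer in either library. All 10 epithelial markers were detected in these immune classes, and their summed level moved with the library: 2690 CPM in WT and 1522 in cKO neutrophil-like cells, 1575 and 958 in T-like cells, and 1115 and 776 in macrophage and monocyte-like cells. The part of epithelial RNA in the members' lower values was not tested.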

How the data were processed

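Droplet single-cell libraries of pooled tumours, 1 per genotype, were analysed. The deposited values are raw UMI counts per gene and barcode, which the file headers credit to Cell Ranger 7.2.0. Seurat 3.0 and mm10 are listed in the submitters' processing notes. The matrices held 116066712 (WT) and 97364087 (cKO) UMIs in 9445 and 6723 barcodes.

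Barcodes with under 500 genes, over 25% mitochondrial UMIs or the top Scrublet scores (0.8% per 1000 barcodes) were removed. Cells were clustered with scanpy 1.11.5 on 2000 variable genes, 30 components and 20 neighbours (Leiden resolution 1), without Slc25a genes, Mtch1 and Mtch2. Class names came from marker lists. UMIs were summed per class and library and scaled to 1000000; ratios added 0.5 counts. The ratio and its interval were run on simulated Poisson counts, the model that the interval assumes. This checks the computation only and says nothing of the spread between cells or mice. A first criterion, on small sets of genes, was not met, and coverage was then taken over all genes past the CPM limit.

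Values were to be given for members at 50 CPM in epithelial-like cells, past 1.5-fold between libraries, or at 50 CPM in a class and 4-fold above epithelial-like cells. No member met the last rule in a class with 30 or more cells per library. Other members named were chosen after their values were seen. The values of 1 member are not reported here. The members and lists were chosen with earlier results of these data known.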

Additional observations from a re-analysis of the deposited data

Results flagged for a closer look

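Slc25a36 went opposite ways in different classes: its log2 ratio of cKO over WT was 0.11 in epithelial-like cells (3417 and 2780 UMIs) and -0.88 in neutrophil-like cells (25 and 28 UMIs), each with an interval that excluded 0. The difference between the classes was not tested, since each genotype has 1 library. The median of all genes in neutrophil-like cells was -0.28.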

How the results depend on the processing

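No paired analysis was possible because each genotype has 1 pooled library, and for the same reason no library could be left out. The epithelial-like family sum (log2 -0.014) became 0.025 without mitochondrial, ribosomal protein, haemoglobin and immunoglobulin genes in the total, 0.0049 with median-of-ratios scaling and 0.11 in cells assigned female. It was -0.033 at Leiden resolution 2, -0.026 with a marker gate on each cell, -0.054 with each cell weighted equally, -0.042 with equal weights of clusters and -0.070 in cells assigned male. The T-like sum was -0.0049 in cells assigned female. The macrophage and monocyte-like sum was -0.16 with all barcodes, -0.16 with each cell weighted equally and 0.062 in female cells. The neutrophil-like sum was 0.057 with the marker gate, 0.028 with median-of-ratios scaling and -0.45 in cells assigned male. The median over measured members was 0.092 in cells assigned female. The count of members past the fold was 2 with all members with a UMI and 1 at the lower fold tried. Shares of all genes are not given for these settings. Leaving out clusters 7 and 9, chosen after seeing the data as those with medians under 5000 UMIs, gave a family sum of -0.015. The causes were not tested.

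Of the 9 members at 50 CPM, 80 values under alternatives stayed, 26 moved and 11 reversed. With each cell weighted equally, Slc25a24 was 0.0051, Slc25a3 -0.037 and Slc25a5 -0.12. With equal weights Slc25a3 was -0.017 and Slc25a5 -0.077. At resolution 2 Slc25a5 was -0.011. In female cells Slc25a24 was 0.15 and Slc25a25 0.18, and in male cells Slc25a3 was -0.0027, Slc25a33 0.11 and Slc25a5 -0.054. Slc25a5 was 0.27 in female cells. Slc25a20 (-0.013) was 0.33 with each cell weighted equally and 0.16 in female cells. Slc25a1 (-0.19) was -0.33 with equal weights of clusters, -0.34 in female cells and -0.083 in male cells, where its interval included 0. Slc25a4 (-0.26) was -0.39 with each cell weighted equally and -0.46 in male cells.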

Other observations

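Classes with too few cells for a comparison still held members at high levels. In erythroid-like cells, 14 in WT and 17 in cKO, Slc25a37, the mitoferrin of red cell precursors, was at 348 CPM (17 UMIs) and 380 CPM (35 UMIs). Squamous-like cells were found in cKO alone, 58 cells with a family sum of 2025 CPM, Slc25a4 at 224 CPM, Slc25a48 at 17.5 CPM and Mtch2 at 65.9 CPM, beside 23.4 CPM for Mtch2 in cKO epithelial-like cells. The unnamed low-UMI cluster 0 had a family sum of 2457 CPM in WT and 2336 CPM in cKO, with Slc25a5 at 616 and 508 CPM, Slc25a4 at 128 and 117 CPM and Mtch2 at 106 and 44.2 CPM.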
